A study of Homo sapiens with 12 samples.

Results

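The cGAS-STING pathway was examined here through 8 of its components, which were chosen by name from the 58288 genes listed in an RNA-Seq table of FaDu cells. FaDu is an established human head and neck squamous cell carcinoma (HNSCC) line. The 8 genes were MB21D1, which encodes cGAS and is also called CGAS, IFI16, TREX1, ENPP1, TMEM173, which encodes STING, TBK1, IKBKE and IRF3. All 8 were listed under these symbols and all 8 passed the filter on low values, which required that 3 of the 12 libraries reach 1 TPM (transcripts per 1000000). The STING KO line carried Cas9 and a STING guide RNA, and the STING WT line carried Cas9 and a non-targeting guide RNA. Both lines were made with lentiviral vectors and drug selection, so every group expressed Cas9 and a guide, and no group was the parental line. Whether the KO line was 1 clone or a mixed population was not stated in the sources used here. Each line was studied unirradiated (0 Gy) and after 4 daily fractions of 2 Gy (RT), with 3 libraries in each of the 4 groups. The labels do not say that the 3 libraries of a group came from separate cultures, so the p-values measure the spread between these libraries, which may be technical.

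cGAS is an enzyme that binds DNA in the cytosol and makes the cyclic dinucleotide cGAMP. cGAMP binds STING, an adaptor in the membrane of the endoplasmic reticulum, which then moves through the Golgi and recruits the kinase TBK1. TBK1 and the related kinase IKKε, encoded by IKBKE, phosphorylate STING and the transcription factor IRF3, which enters the nucleus and switches on type I interferon and a set of antiviral genes. Other enzymes limit the signal: TREX1 degrades cytosolic DNA, and ENPP1 hydrolyses cGAMP outside the cell. Most of these steps are controlled by binding, movement and phosphorylation of proteins, none of which is measured by RNA abundance.

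The values are TPM as the authors deposited them, in which each library sums to 1000000, so read depth is unknown and the spread between libraries is the measure of error. Differences are given on the log2(TPM + 1) scale, on which the change of a gene with a low TPM is understated. They come from a limma fit of all 12 libraries and 15973 genes, and adjusted p-values are Benjamini-Hochberg values over all of these genes, with a threshold of 0.05. All 8 squamous epithelial markers examined were at 1 TPM or above, with summed levels of 6425 to 9049 TPM. The markers of leukocytes and fibroblasts were below 1 TPM, except CD14 (2.62 to 4.35 TPM) and COL1A1 (6.34 to 9.23 TPM). The summed endothelial level was 11.5 to 13.9 TPM in unirradiated WT and 13.0 to 15.9 in unirradiated KO libraries. After radiation it was 18.3 to 18.7 in WT and 19.9 to 23.9 in KO libraries. The endothelial sum came mostly from CDH5 (8.51 to 19.8 TPM), with VWF at 2.60 to 4.49 TPM. PECAM1 and KDR were at most 0.0989 and 0.0126 TPM in any library. The part of this sum in any result on radiation was not tested.

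The 8 components spanned a wide range of levels in unirradiated WT cells, where TPM, being scaled by length, can be compared between genes. IFI16 (89.4 ± 5.34 TPM, SD, n = 3) and MB21D1 (85.2 ± 0.858) were the most abundant, and their libraries overlapped. TBK1 (73.4 ± 4.17), IRF3 (54.3 ± 6.17) and TMEM173 (22.1 ± 1.24) followed, each with all libraries below those of the gene before it. TREX1 (6.97 ± 4.96) and IKBKE (5.30 ± 0.642) overlapped each other, and ENPP1 was the lowest (1.77 ± 0.426). In unirradiated KO cells MB21D1 stood above all other components, IFI16 overlapped TBK1, and TMEM173 (5.81 ± 0.995) overlapped TREX1 and was no longer separate from the low-level genes. In irradiated KO cells all 3 IFI16 libraries lay below all 3 TBK1 libraries.

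**Figure D1:**
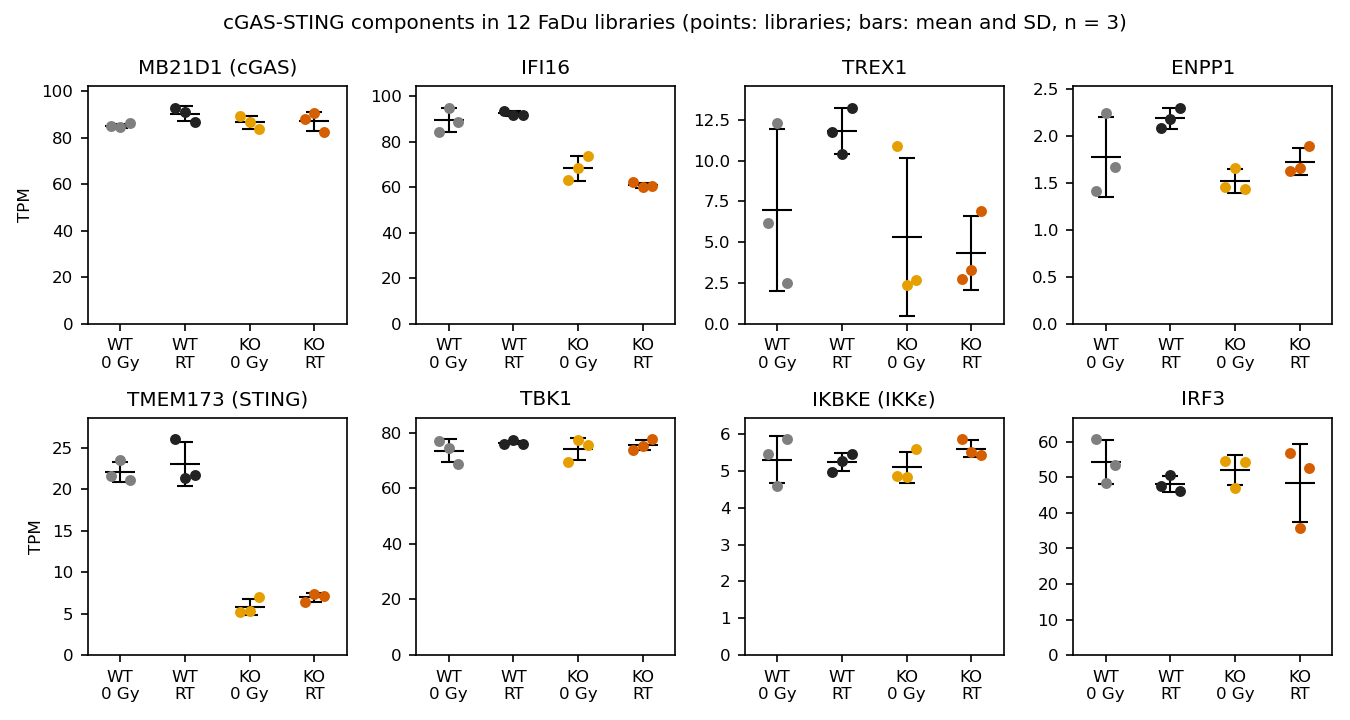
TPM of each component (vertical axes, each starting at 0 with its own scale) in the STING WT and STING KO groups at 0 Gy or after radiation (RT). Points are libraries and bars are the mean and SD of 3 libraries. TMEM173 and IFI16 are separated between WT and KO in both arms, whereas TREX1 spreads from 2.46 to 12.3 TPM within the unirradiated WT group alone.

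The comparison of STING KO with STING WT asks how the transcripts of the pathway differ between the line edited at the STING gene and its control line. In unirradiated cells 2 of the 8 components passed the threshold, TMEM173 and IFI16, both lower in KO, where 1.73% of all tested genes passed, 1.26% lower and 0.463% higher. In irradiated cells the same 2 components passed, again both lower, against 3.59% of all tested genes, 2.66% lower and 0.927% higher. Libraries that did not overlap between KO and WT were found for 20.6% of all tested genes without radiation and 24.1% with it. The median difference over the 8 components was -0.09 unirradiated and -0.14 irradiated, beside -0.02 over all tested genes in each arm. TMEM173 is the edited gene, so IFI16 was the 1 other component that passed.

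The edited gene, TMEM173 (ENSG00000184584.12), spans 139475534 to 139482935 of chromosome 5 (GRCh38, minus strand). Its TPM was 21.1 to 23.5 in unirradiated WT and 5.18 to 6.96 in unirradiated KO libraries, and 21.4 to 26.1 and 6.35 to 7.41 after radiation. The level in KO was 26.3% of that in WT without radiation (22.0% to 32.9% over pairs of libraries) and 30.1% with it (24.4% to 34.6%). After radiation the difference was -1.60 (SE 0.11, limma adjusted p = 2.0e-05), and every KO library lay below every WT library in both arms. In relation to TBK1, the kinase STING recruits, the TPM of TMEM173 was 0.302 ± 0.018 of that of TBK1 in unirradiated WT libraries and 0.078 ± 0.012 in unirradiated KO libraries (SD, n = 3). The STING transcript was thus lower in KO but still present, and a level per gene does not show whether that RNA carries an edit. The paper reported loss of the STING protein in its FaDu KO cells by immunoblot, so the RNA level is not a measure of the protein. In these bulk libraries, fewer cells with the transcript and less of it per cell cannot be told apart.

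MB21D1 (ENSG00000164430.15; chromosome 6, 73413515 to 73452276, minus strand), the gene for cGAS, had the smallest within-group spread of the 8 components. Its TPM was 84.9, 84.5 and 86.2 in unirradiated WT, 89.4, 86.6 and 83.7 in unirradiated KO, 93.0, 91.2 and 86.9 in irradiated WT and 88.2, 90.5 and 82.6 in irradiated KO libraries. The KO and WT libraries overlapped in both arms. The difference between KO and WT was 0.02 without radiation (95% interval -0.08 to 0.13, limma adjusted p = 0.887) and -0.05 with radiation (-0.16 to 0.05, adjusted p = 0.622). The sensor upstream of STING therefore showed no detectable difference between these libraries. The lowest limit of the intervals was -0.16 and the highest 0.13, and both rest on the spread between libraries. The within-group SD of MB21D1 was 0.05, below the median of 0.15 over all tested genes.

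IFI16 (ENSG00000163565.18; chromosome 1, 158999968 to 159055155, plus strand) encodes an interferon-inducible DNA-binding protein of the PYHIN family that cooperates with cGAS and STING. Its TPM was 84.4, 95.04 and 88.8 in unirradiated WT libraries and 62.98, 68.3 and 73.8 in unirradiated KO libraries. The irradiated libraries held 93.6, 91.8 and 92.0 TPM if WT and 62.2, 59.9 and 60.6 TPM if KO. All KO libraries lay below all WT libraries in both arms, and within the irradiated groups the 3 libraries lay within a few TPM of each other. The level in KO was 76.4% of that in WT without radiation and 65.8% with it. IFI16 fell by 0.38 without radiation (SE 0.06, limma adjusted p = 0.00998) and by 0.60 with radiation (SE 0.06, adjusted p = 3.7e-04). The unirradiated call was lost when only the 6 unirradiated libraries were fitted (adjusted p = 0.125), and the irradiated call was kept in every alternative tried (adjusted p up to 0.0031). The other PYHIN genes in the list of DNA sensors, AIM2, MNDA and PYHIN1, were below 1 TPM in all libraries, and AIM2 was at 0.148 to 0.696 TPM in the WT libraries and listed at 0 in all 6 KO libraries.

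The radiation effect on IFI16 passed the threshold in neither line. In KO, all 3 irradiated libraries lay below all 3 unirradiated libraries, with a difference of -0.16 (SE 0.06, limma adjusted p = 0.195). In WT the difference was 0.05 (adjusted p = 0.739) and the libraries overlapped. The difference between both radiation effects was -0.21 (95% interval -0.40 to -0.02, limma adjusted p = 0.744), which did not pass either.

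The promoters were read to show what lies before the start sites of these genes, from RefSeq on GRCh38.p14, as windows of 250 bases before to 50 after each start. Entries were found for 5 of the 8 components (IFI16, with 2 promoters, TREX1, ENPP1, TBK1 and IKBKE), and not for TMEM173, MB21D1 and IRF3. Both strands were searched for AANNGAAA, a core that IRF proteins bind. It was in 22.8% of 35116 promoters, and in 3 of the 6 component promoters, both of IFI16 and that of IKBKE, whereas those of TREX1, ENPP1 and TBK1 held none. The 250 bases before the start are shown for the second IFI16 promoter, which holds 2 matches, for IKBKE and for TBK1, which has none. The first IFI16 promoter holds 1 match, on the minus strand, and is not shown. The sequences shown read along the plus strand, with matched letters in capitals, which merge where matches overlap. The match in IKBKE is on the minus strand, so its letters read as the reverse complement. A match is a stretch of letters, not a site shown to be bound.
IFI16, chr1:159009657-159009906: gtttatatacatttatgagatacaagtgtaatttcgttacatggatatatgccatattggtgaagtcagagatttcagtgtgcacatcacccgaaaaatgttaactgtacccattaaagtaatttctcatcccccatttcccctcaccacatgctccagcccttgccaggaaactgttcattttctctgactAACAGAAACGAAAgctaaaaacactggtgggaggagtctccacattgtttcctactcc
IKBKE, chr1:206470226-206470475: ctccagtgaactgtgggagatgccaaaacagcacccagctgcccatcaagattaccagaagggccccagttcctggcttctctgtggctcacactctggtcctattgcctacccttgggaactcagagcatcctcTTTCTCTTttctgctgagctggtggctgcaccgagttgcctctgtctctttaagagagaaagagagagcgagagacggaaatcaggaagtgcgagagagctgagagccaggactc
TBK1, chr12:64451870-64452119: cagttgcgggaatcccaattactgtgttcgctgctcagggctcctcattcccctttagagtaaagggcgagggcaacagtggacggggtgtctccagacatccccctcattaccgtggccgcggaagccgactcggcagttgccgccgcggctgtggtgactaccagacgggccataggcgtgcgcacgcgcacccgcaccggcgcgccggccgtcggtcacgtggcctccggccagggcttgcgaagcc

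TREX1 (ENSG00000213689.11; chromosome 3, 48465811 to 48467645, plus strand), the exonuclease that degrades cytosolic DNA, was the component whose libraries agreed least. Its TPM was 6.16, 12.3 and 2.46 in unirradiated WT and 10.9, 2.39 and 2.67 in unirradiated KO libraries, which overlapped. The irradiated libraries did not overlap, with 11.8, 10.4 and 13.2 TPM if WT and 2.72, 3.30 and 6.91 TPM if KO. The within-group SD was 0.76 on the log2 scale, above that of 98.8% of all tested genes. The difference between KO and WT was -1.34 after radiation (SE 0.55, 95% interval -2.57 to -0.12, limma adjusted p = 0.233) and -0.38 without it (-1.61 to 0.84, adjusted p = 0.815), so neither passed.

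TREX1 lies within the span of ATRIP, a gene of the DNA damage response on the same strand (48446710 to 48467645), so reads from the shared stretch cannot be assigned by strand. ATRIP was at 8.18, 1.48 and 9.43 TPM in unirradiated WT and 8.57, 7.57 and 1.75 TPM in unirradiated KO libraries. In irradiated libraries it was at 7.30, 2.29 and 8.47 TPM in WT and 9.78, 9.30 and 7.15 TPM in KO. The unirradiated WT library with the most TREX1 had the least ATRIP, whereas the unirradiated KO library with the most TREX1 also had the most ATRIP. With the TPM of both genes added, an alternative chosen after the values were seen, the irradiated difference between KO and WT was -0.39 (limma adjusted p = 0.649). How the reads were divided between both genes was not tested.

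**Figure D2:**
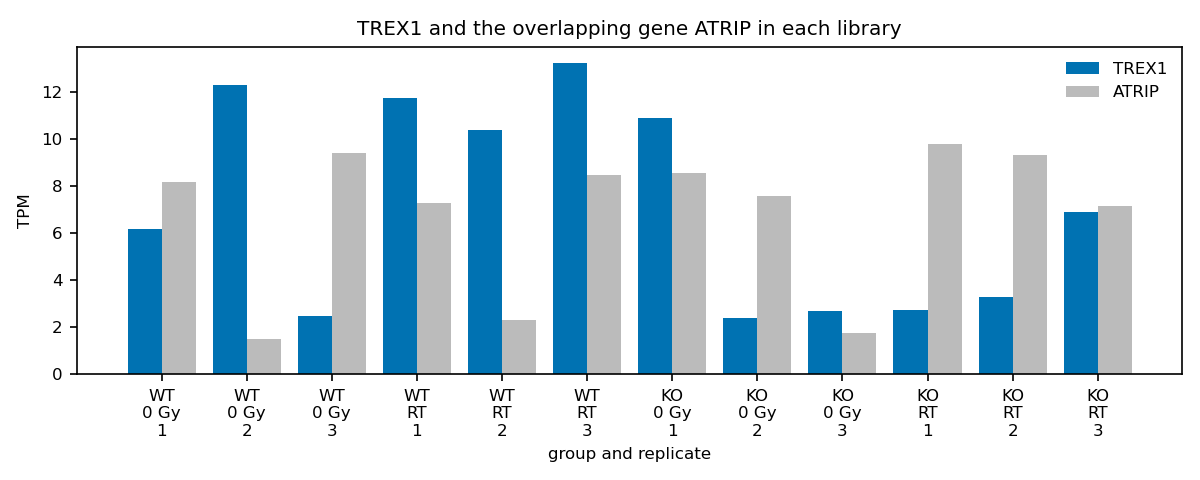
TPM of TREX1 (blue) and of ATRIP (grey), which overlaps it on the same strand, in each of the 12 libraries (horizontal axis: group and replicate). In unirradiated WT replicate 2 TREX1 is at 12.3 and ATRIP at 1.48 TPM, whereas in unirradiated KO replicate 1 both are high, at 10.9 and 8.57 TPM.

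ENPP1 (ENSG00000197594.11; chromosome 6, 131808016 to 131895155, plus strand), the main extracellular hydrolase of cGAMP, was close to the filter in every group. Its TPM was 1.41, 2.24 and 1.67 in unirradiated WT, 1.46, 1.66 and 1.44 in unirradiated KO, 2.08, 2.18 and 2.30 in irradiated WT and 1.63, 1.66 and 1.89 in irradiated KO libraries. The irradiated WT libraries all lay above the irradiated KO libraries, but the difference was -0.23 (95% interval -0.49 to 0.03, limma adjusted p = 0.358). Without radiation it was -0.13 (-0.39 to 0.13, adjusted p = 0.686) and the libraries overlapped.

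The levels of both kinases downstream of STING differed little between the groups. TBK1 (ENSG00000183735.9; chromosome 12, 64451880 to 64502108, plus strand) was at 77.0, 74.4 and 68.9 TPM in unirradiated WT, 69.6, 77.1 and 75.5 in unirradiated KO, 76.1, 77.1 and 76.0 in irradiated WT and 73.8, 75.2 and 77.6 in irradiated KO libraries. Its KO-WT difference was 0.01 without radiation (95% interval -0.11 to 0.13, limma adjusted p = 0.950) and -0.02 with it (-0.14 to 0.10, adjusted p = 0.910). IKBKE (ENSG00000263528.7; chromosome 1, 206470476 to 206496889, plus strand) was at 5.45, 4.60 and 5.85 TPM in unirradiated WT, 4.86, 4.85 and 5.58 in unirradiated KO, 4.98, 5.27 and 5.46 in irradiated WT and 5.86, 5.50 and 5.43 in irradiated KO libraries. Its KO-WT difference was -0.04 without radiation (-0.25 to 0.16, adjusted p = 0.877) and 0.08 with it (-0.12 to 0.28, adjusted p = 0.694). The TPM of IKBKE was 0.062 to 0.085 of that of TBK1 in every library, so TBK1 was the more abundant kinase transcript throughout.

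IRF3 (ENSG00000126456.15; chromosome 19, 49659569 to 49665875, minus strand), the transcription factor that TBK1 activates, was at 60.8, 48.5 and 53.6 TPM in unirradiated WT, 54.7, 47.1 and 54.4 in unirradiated KO, 47.6, 50.6 and 46.1 in irradiated WT and 56.7, 35.8 and 52.6 in irradiated KO libraries. Irradiated KO replicate 2 was the lowest of the 12, and the groups overlapped. The KO-WT difference was -0.06 without radiation (95% interval -0.39 to 0.28, limma adjusted p = 0.910) and -0.02 with it (-0.35 to 0.32, adjusted p = 0.971). IRF3 overlaps BCL2L12 on the opposite strand. The strand setting of the counting is not given in the sources used here, so reads from the shared stretch may belong to either. BCL2L12 was at 36.9 to 43.4 TPM.

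**Figure D3:**
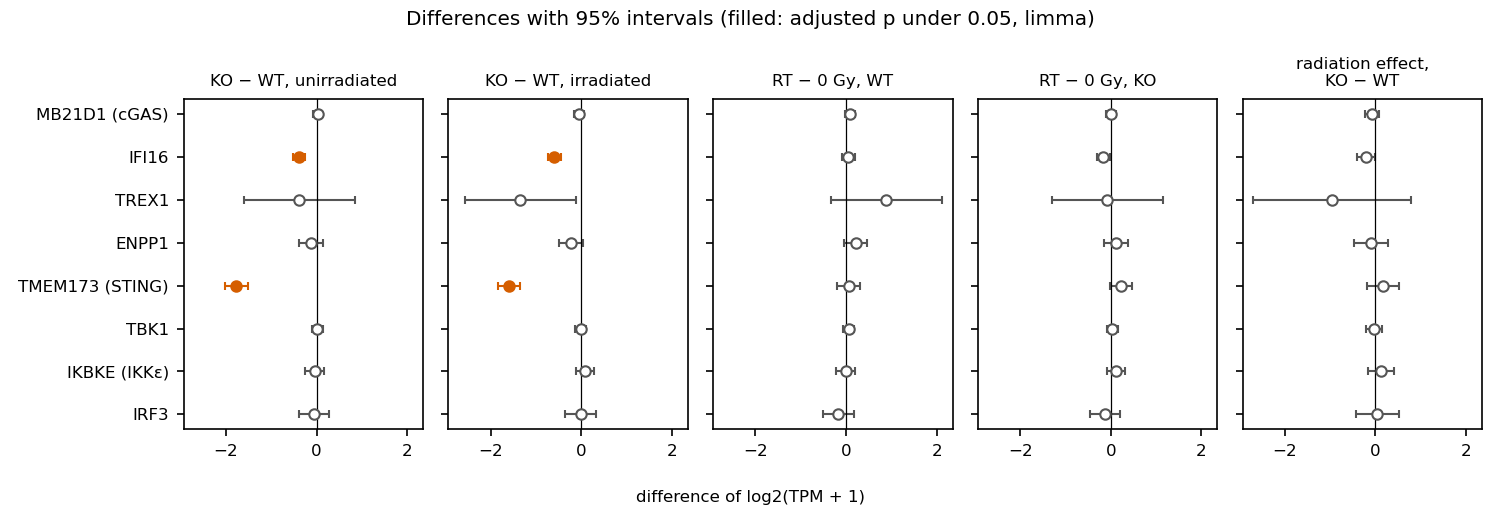
Differences of log2(TPM + 1) with 95% intervals (horizontal axes) for the 8 components (rows) in 5 comparisons: KO minus WT in each arm, irradiated minus unirradiated in each line, and the radiation effect in KO minus that in WT. Filled orange points passed an adjusted p of 0.05 (limma): TMEM173 at -1.77 and -1.60 and IFI16 at -0.38 and -0.60. The intervals of TREX1 are the widest.

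The comparison of irradiated with unirradiated cells asks whether the transcripts of the components moved with radiation in either line. All of its libraries also enter the comparisons of KO and WT. No component passed in WT, where 3.74% of all tested genes passed (1.5% lower, 2.24% higher), and none had an unadjusted p under 0.05 in limma, as 18.2% of all tested genes did. None passed in KO, where 3.69% of all tested genes passed (1.7% lower, 2% higher), and 1, IFI16, had an unadjusted p under 0.05, beside 18.1% of all tested genes. The irradiated and unirradiated KO libraries did not overlap for IFI16 and for 24.3% of all tested genes. MB21D1 was at higher TPM in all irradiated WT libraries than in all unirradiated WT libraries, by 0.08 (95% interval -0.02 to 0.19, limma adjusted p = 0.402), beside 24.8% of all tested genes whose libraries did not overlap. TMEM173 differed by 0.05 in WT (-0.19 to 0.30, adjusted p = 0.857) and by 0.23 in KO (-0.02 to 0.48, adjusted p = 0.315), and the libraries overlapped in both lines. TREX1 differed by 0.89 in WT (-0.34 to 2.11, adjusted p = 0.449) and by -0.07 in KO (-1.30 to 1.15, adjusted p = 0.964). TBK1, IKBKE, IRF3 and ENPP1 differed by -0.17 to 0.21 over both lines, with intervals that included 0. No component passed in the difference of the radiation effects (adjusted p of 0.744 or more), where 0.0188% of all tested genes passed, all higher, and 1, IFI16, had an unadjusted p under 0.05, beside 6.61% of all tested genes.

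The 3 genes whose log2(TPM + 1) followed that of TMEM173 most closely over the 12 libraries were HERC5 (Pearson's r = 0.989), HLA-B (r = 0.988) and IFIT3 (r = 0.987). HERC5 is a ligase that attaches ISG15, and its mean TPM was 77.0 in unirradiated WT and 1.12 in unirradiated KO libraries. For IFI16 the closest were UBE2L6 (r = 0.977), the conjugating enzyme of ISG15, MCAT (r = 0.975) and PODXL (r = 0.969). UBE2L6 was at a mean of 103 TPM in unirradiated WT and 61.6 TPM in unirradiated KO libraries. The 12 libraries share the WT and KO groups, and the mean TPM of each of these genes was lower in KO in both arms. The gap was small for MCAT, with means of 46.6 TPM in unirradiated WT and 41.5 TPM in unirradiated KO libraries. Within groups r was 0.361 to 0.669 for the 3 genes beside TMEM173 and 0.532 to 0.625 for the 3 beside IFI16.

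The rest of the pathway was described through 166 further genes in 11 lists, from other DNA sensors to the output genes of IRF3 and STING, of which 149 could be tested. In unirradiated cells 13 (8.72%) were past the threshold, all lower in KO, beside 1.73% of all tested genes. The output genes held 8 of the 13, among 9 that could be tested. CCL5 (at most 0.486 TPM in KO libraries) and RSAD2 (at most 0.107 TPM) passed the filter through the WT libraries alone, so their calls are no support. With a pseudocount of 1, OASL (-6.16), IFIT2 (-4.49), IFIT3 (-3.99), CCL5 (-3.01), RSAD2 (-2.86) and IFIT1 (-2.37) fell most, and these genes encode antiviral proteins and a chemokine. Their order depends on the pseudocount: with 0.1, RSAD2 was at -5.62 and CCL5 at -5.16, beyond IFIT2 (-4.80) and IFIT3 (-4.17). Earlier results of these data were known when all 11 lists were made. Neither the shares nor the directions in them are thus independent evidence in any comparison. Outside the output list 5 of 140 genes passed (3.57%): IRF7, SAMHD1, TRIM14, MRE11 and TRIM21. Of these, IRF7 is the interferon-inducible relative of IRF3 (-0.82), SAMHD1 a nucleotide hydrolase that acts at stalled replication forks (-0.72), and TRIM14 an interferon-inducible protein that stabilises cGAS (-0.69).

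In irradiated cells 18 of the 149 list genes passed (12.1%), 17 of them lower in KO, beside 3.59% of all tested genes. The 9 output genes tested all fell, among them OASL (-6.88), IFIT2 (-5.29), IFIT3 (-4.59), IFIT1 (-3.38) and ISG15 (-3.00). RSAD2 was at 10.7 to 14.1 TPM in irradiated WT libraries and listed at 0 in all 3 irradiated KO libraries. CCL5 was at -2.90, and at -4.27 with a pseudocount of 0.1. As without radiation, CCL5 and RSAD2 passed the filter through the WT libraries alone, so their calls are no support. The shares and directions of the lists are not independent evidence in this arm either. Outside that list 9 of 140 passed (6.43%), 8 of them lower, among them IRF7 (-1.24) and TRIM14 (-1.10). None of the 8 tested adaptors and scaffolds of TBK1 and IKKε passed in either arm and none of the 14 genes of the NF-kB arm passed. STING trafficking and turnover held 27 tested genes, of which 1 passed in the irradiated arm (RHBDF2, -0.60) and 0 unirradiated. MRE11, a nuclease that binds broken DNA ends, was the 1 gene of the lists that was lower in KO without radiation (-0.56, limma adjusted p = 0.0072) and higher in KO with it (0.45, adjusted p = 0.017).

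**Figure D4:**
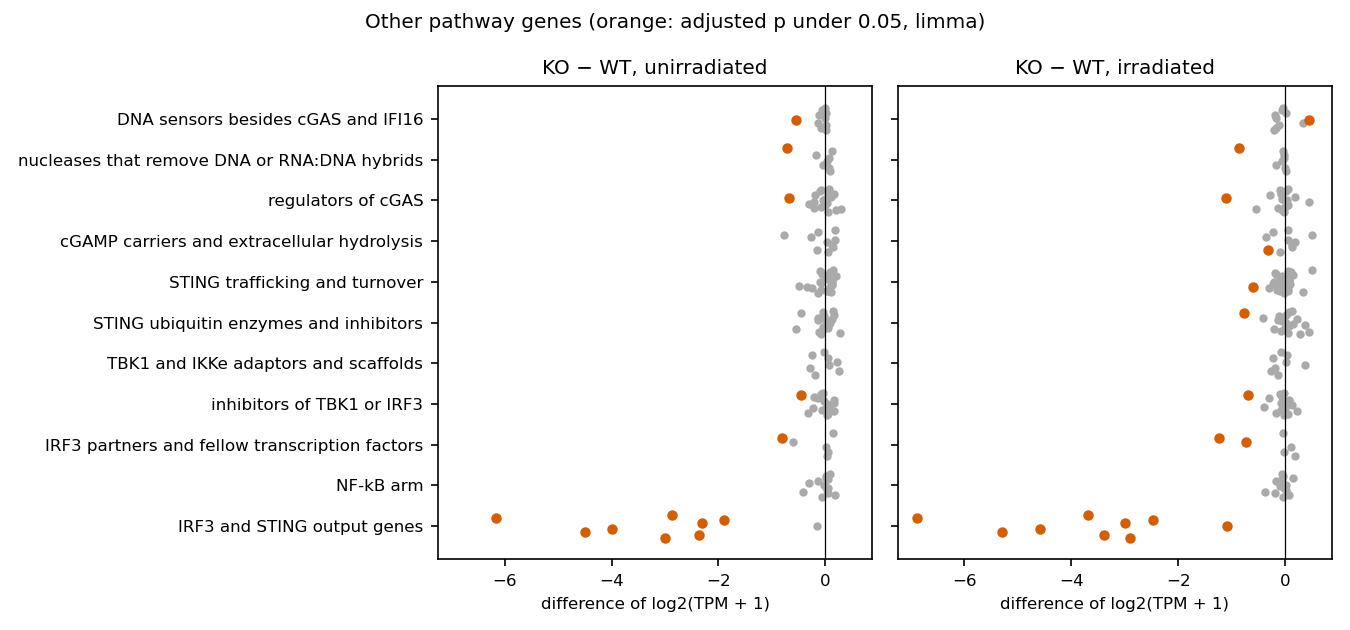
Difference of log2(TPM + 1) between KO and WT (horizontal axes) for the tested pathway genes outside the 8 components, by list (rows), without radiation and with it. Each point is a gene and orange points passed an adjusted p of 0.05 (limma): 13 unirradiated and 18 irradiated, with the output genes far to the left.

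With radiation, 16 of the 149 list genes passed in WT (10.7%, beside 3.74% of all tested genes), 11 higher and 5 lower. IL6 (1.64), RSAD2 (0.76), IFIT2 (0.72) and ISG15 (0.70) rose most, and TRIM29 (-0.58), MRE11 (-0.52), DTX4 (-0.40) and GJA1 (-0.35) fell most. In KO 9 passed (6.04%, beside 3.69% of all tested genes), 4 higher and 5 lower. There GJB2 (0.63), TNFAIP3 (0.54), MRE11 (0.48) and NFKB2 (0.31) rose, and GJA1 (-0.50), TRIM29 (-0.47), SOCS3 (-0.42) and ABCC1 (-0.34) fell most. GJA1 and GJB2 encode connexins of the gap junctions through which cGAMP can pass between cells. Of the 9 output genes tested, 6 passed in WT, all higher, and 0 in KO. CCL5 and RSAD2 passed the filter through the WT libraries alone, so their result in KO cannot be read. In the difference of the radiation effects 0 of the 9 passed, where 0.0188% of all tested genes passed. Of these 9, which include CCL5 and RSAD2, 7 had an unadjusted p under 0.05 in limma, beside 6.61% of all tested genes. Their median difference was -0.73, beside -0.0024 over all tested genes. A loss of the radiation effect in KO was thus not shown at the threshold for these genes. MRE11 was the 1 list gene that passed in the difference of the radiation effects (1.01, SE 0.12, limma adjusted p = 0.035).

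The interferon transcripts examined, which IRF3 can switch on, reached at most 2.18 TPM. They were IFNB1 of type I and IFNL1, IFNL2 and IFNL3 of type III, and no other type I interferon was examined. IFNB1 was listed at 0 in all 12 libraries, and IFNL1 was at 0.816, 0.865 and 0.659 TPM in unirradiated WT and 1.35, 2.18 and 0.514 TPM in irradiated WT libraries. IFNL1 was listed at 0 in all 6 KO libraries. These genes, with IFNL2, IFNL3, CXCL10 and TNF, did not pass the filter and were not tested.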

How the data were processed

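Paired-end reads of polyadenylated RNA were obtained for 12 FaDu libraries, and TPM per gene was deposited. Per the labels, the submitters' processing notes name HISAT2, StringTie, DESeq2 and hg38, with no role or version. Strand setting and annotation are not given in the sources used here. TPM keeps no depth, so counting error could not be given. Columns were tied to samples by their names: NT2 is the non-targeting guide of the methods and A63 the other line, and TMEM173 was lower in every A63 column. No column of values was left unassigned.

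Differences were tested with limma 3.58.1 (R 4.3.3; 4 group means, eBayes with trend, 8 residual degrees of freedom) on log2(TPM + 1), a pseudocount of 1, for genes with at least 1 TPM in 3 libraries. The code was tested on simulated data. DESeq2, which the authors applied, needs counts, which were not used here. Coordinates came from GENCODE release 29, matched by identifier; TREX1 and ENPP1 matched in another version. Sequences came from RefSeq, read with pandas 2.3.3.

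The members and lists were chosen with earlier results of these data known. Named list genes were the largest changes past the threshold (up to 6 per direction for KO against WT, 4 for radiation), genes passing for the difference of radiation effects, and the 3 most alike genes. IRF7, SAMHD1, TRIM14, TRIM21, RHBDF2, AIM2, MNDA, PYHIN1, ATRIP, BCL2L12 and the interferon genes below the filter were otherwise named after their values were seen. Alternatives were median-of-ratios or quantile scaling, no filter, a filter at a mean of 5 TPM, a pseudocount of 0.1, a block for the replicate number, eBayes with no trend, a fit to the 6 libraries of each comparison, the omission of each library, and the sum of TREX1 and ATRIP.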

Additional observations from a re-analysis of the deposited data

Results flagged for a closer look

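Libraries that moved in opposite directions with radiation in WT and KO, without overlap, were looked for in part of the genes. These were the components and the list genes past the threshold in any comparison. Such moves were found for 3 list genes, and the difference passed its test for MRE11 but not for IFIT1 or OASL. The share of all tested genes with opposite moves was not computed. Irradiated and unirradiated libraries did not overlap, in either direction, for 24.8% of all tested genes in WT and 24.3% in KO. MRE11 fell in WT libraries (28.4, 24.9 and 24.4 TPM unirradiated, 17.0, 18.5 and 17.6 TPM irradiated) and rose in KO libraries (16.8, 16.2 and 18.7 TPM unirradiated, 22.0, 25.9 and 25.6 TPM irradiated). The difference of the radiation effects was 1.01 (limma adjusted p = 0.035), and it lost its call in 11 of 19 alternatives, with an adjusted p of up to 0.195.

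IFIT1 was at 108, 118 and 89.3 TPM in unirradiated WT and 172, 171 and 144 TPM in irradiated WT libraries. In KO it was at 18.8, 19.9 and 19.4 TPM without radiation and 15.3, 15.1 and 13.6 TPM with it. The difference of the radiation effects was -1.01, and its test did not pass (limma adjusted p = 0.141).

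OASL was at 152, 169 and 120 TPM in unirradiated WT and 227, 218 and 204 TPM in irradiated WT libraries. In KO, 1.06, 1.10 and 1.01 TPM without radiation stood against 0.975, 0.992 and 0.585 TPM with it. The difference of the radiation effects was -0.73, which did not pass (limma adjusted p = 0.575), and the KO values lie at the level of the filter.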

How the results depend on the processing

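TMEM173 passed in both arms in all 20 alternatives, with differences of -1.92 to -1.71 without radiation and -1.71 to -1.51 with it. With only the 6 libraries compared, 1 of 8 components passed in unirradiated cells instead of 2, because IFI16 (adjusted p = 0.125) no longer did, whereas in irradiated cells 2 passed in every alternative. The number of list genes past the threshold was 9 to 14 unirradiated and 15 to 18 irradiated for KO against WT. For radiation in WT, 16 list genes became 4 with only the 6 libraries compared, and 8 to 16 with each library left out, the lowest without irradiated WT replicate 1. For radiation in KO, 9 became 3 with only the 6 libraries compared, and 3 to 12 with each library left out, the lowest without irradiated KO replicate 3. For the difference of the radiation effects, 1 became 0 by eBayes without trend, and 0 to 1 with each library left out. The causes were not tested.

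The replicate numbers are shared by the groups, but deviations of same-numbered samples correlated at -0.06 to 0.064 over 18 pairs, none above 0.1. No pairing was thus seen over all genes together. A link between same-numbered samples that touches few genes might not show in these values and was not tested. With the replicate block, 10 list genes passed for radiation in WT and 0 for the difference of the radiation effects, and the components past the threshold stayed at 2 in both arms. The difference of TREX1 between KO and WT without radiation ran from -0.97 to 0.09 with each library left out, and turned sign in 1 of 21 alternatives. TPM does not give depth, and 3 libraries per group set the precision.

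Of the list genes named for KO against WT, IRF7 (adjusted p up to 0.0545) and TRIM14 (0.0878) without radiation and MRE11 (0.0723) with it lost their call without 4, 5 and 4 of the libraries, each left out alone. For radiation in WT, RSAD2 (0.118), DTX4 (0.0828) and GJA1 (0.0816) did so, and in KO MRE11 (0.0586), GJB2 (0.0755), NFKB2 (0.095), TRIM29 (0.0618), ABCC1 (0.088) and SOCS3 (0.0514, without unirradiated KO replicate 1). With only the 6 libraries compared, MRE11 (0.068), TRIM21 (0.0989), ISG20 (0.055) and IRF7 (0.0907) without radiation and MRE11 (0.0704) with it lost their call for KO against WT. For radiation in WT, IFIT1 (0.0834), IFIT2 (0.0503), RSAD2 (0.14), GJA1 (0.0779), DTX4 (0.0977) and TRIM29 (0.0635) did so, and in KO MRE11 (0.0777), GJA1 (0.064), SOCS3 (0.0639), TNFAIP3 (0.0757), NFKB2 (0.0685) and ABCC1 (0.11). RSAD2 for radiation in WT also lost its call with a pseudocount of 0.1 (0.187), no filter (0.073) or the replicate block (0.0665). RSAD2 lost this call in 9 of 19 alternatives. With the replicate block, TRIM14 (0.0541) lost its call for KO against WT without radiation. So did GJA1 (0.0542) and DTX4 (0.0593) for radiation in WT, and GJB2 (0.051) and NFKB2 (0.069) in KO.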
